A study of Danio rerio with 6 samples.

Results

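The brain neuropeptide genes described here are npy, sst1.1, sst1.2, tac1, tac3a, penka, penkb, pdyn, adcyap1b and vipb. They were picked by name, as genes for peptides made by scattered neurons in many brain areas, and each name was looked up in the deposited table of raw counts. All 10 names were found, each on 1 row, among 32520 genes in all. All 10 also passed the filter on low counts, which 24765 genes passed. Each library was made from larval heads of the zebrafish, Danio rerio, taken at 3 days post fertilization. The groups were homozygotes for the y712 allele of srrm4 and wild-type siblings, with 3 libraries per genotype. Each library carries a replicate number from 1 to 3, and a mutant and a wild-type library of the same number are called a pair. The labels do not state the clutch, the number of heads pooled or the lesion in the allele.

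Neuropeptides are signalling molecules that neurons make as longer precursors. Prohormone convertases cut the precursor inside dense core vesicles, carboxypeptidase E trims the ends, and many of the peptides are then amidated. The released peptide acts on receptors that couple to G proteins, often at a distance from the release site. Srrm4 is a splicing regulator that favours the inclusion of very short neuronal exons, and such exon choice cannot be read from gene-level counts.

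The libraries held between 52510621 and 101032166 counts. The transcript of srrm4 measured 14.6, 53.6 and 55.1 CPM (counts scaled to library size with TMM factors) in wild-type replicates 1, 2 and 3 and 18.7, 58.7 and 57.9 CPM in the mutant replicates, so its level gives no check of the genotype labels. No member lies on the srrm4 chromosome in the RefSeq annotation. The 14 pan-neuronal marker genes summed to 3561.1 to 3934.8 CPM in the libraries of replicates 2 and 3, and to 2044.3 and 2033.9 CPM in the wild-type and mutant libraries of replicate 1. Genes of hox groups 9 to 13, which mark the posterior body, summed to 117.3 and 105.6 CPM in those replicate 1 libraries and to 14.3 to 21.6 CPM in the other 4. Both replicate 1 libraries therefore stand apart from the rest. Values below are given for every library, and a second fit, blocked on the replicate number, is set beside the fit on genotype alone.

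None of the 10 neuropeptide genes passed the edgeR test between mutant and wild-type heads, which called 0% of all tested genes. Levels in the 2 genotypes overlapped for all 10 genes. Overlap was the rule: the 3 mutant libraries lay all below the wild-type in 0.945% of all tested genes and all above in 1.09%. Npy and sst1.2 were higher in the mutant library of every pair, as were 13.1% of all tested genes, and pdyn was lower in every pair, as were 13.8%. Both replicate 1 libraries lay below the other 4 for 6 members, as for 35.0% of all tested genes, and above them for 2 members, as for 33.7%. Adcyap1b averaged 56.0 CPM in the replicate 1 libraries and 107.7 CPM in the others, and vipb averaged 8.11 CPM and 2.45 CPM. Since whole heads were sequenced, fewer cells of a type and less RNA per cell cannot be told apart in any of these values. Transcript lengths were not at hand, so levels are compared between libraries and not between genes.

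Npy encodes neuropeptide Y, a peptide of the forebrain and hindbrain that stimulates feeding and, in larval zebrafish, promotes sleep. It measured 2.51, 3.38 and 3.31 CPM in wild-type replicates 1, 2 and 3 and 2.73, 4.16 and 4.11 CPM in the mutant replicates. The mutant library was the higher of each pair, but the mutant library of replicate 1 lay below both wild-type libraries of replicates 2 and 3. The within-pair differences were 8.82%, 23% and 24.1% for pairs 1, 2 and 3. On the log2 scale they were 0.12 (95% counting interval -0.22 to 0.46), 0.30 (0.09 to 0.51) and 0.31 (0.11 to 0.51), so the first lay within counting error and the other two did not. The means were 3.07 ± 0.487 CPM in the wild-type heads and 3.67 ± 0.814 CPM in those of mutants (n = 3 per genotype, SD). Its log2 fold change was 0.26 (SE 0.23, edgeR adjusted p = 1). The blocked fit gave 0.26 (SE 0.10) with an unadjusted p of 0.0447 and an edgeR adjusted p of 0.939. The blocked 95% interval corresponds to a fold of 1.01 to 1.42.

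Somatostatin, an inhibitory peptide of many interneurons that also restrains growth hormone release, is made from several genes in zebrafish, of which sst1.1 and sst1.2 lie near each other with 2 annotated genes between them in the RefSeq assembly GRCz12tu. Sst1.1 measured 8.22, 9.37 and 8.58 CPM in wild-type replicates 1, 2 and 3 and 8.98, 8.62 and 8.14 CPM in the mutant replicates. All 6 libraries lay within this narrow range, and no pair differed beyond its counting interval. Its log2 fold change was -0.02 (SE 0.13, edgeR adjusted p = 1), and the blocked 95% interval ran from a fold of 0.86 to 1.11. Sst1.2 measured 10.7, 6.81 and 5.04 CPM in wild-type replicates 1, 2 and 3 and 12.1, 8.01 and 5.64 CPM in the mutant replicates. Both replicate 1 libraries were the highest and both replicate 3 libraries the lowest, and in each pair the mutant library was the higher, by 13.1%, 17.5% and 12%. The differences of pairs 1 and 2 lay outside counting error, and that of pair 3 did not. The means were 7.52 ± 2.91 CPM in the wild-type heads and 8.59 ± 3.28 CPM in those of mutants (n = 3 per genotype, SD). The log2 fold change of sst1.2 was 0.19 (SE 0.38, edgeR adjusted p = 1). The blocked fit gave 0.19 (SE 0.071) with an unadjusted p of 0.0307, 0.939 as the edgeR adjusted p, and a 95% interval from 0.02 to 0.36. The neighbouring sst1.1 and sst1.2 thus differed in how they varied over the libraries, with a correlation of log2 levels of 0.13 over the 6 libraries, which share the replicate 1 difference.

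**Figure D1:**
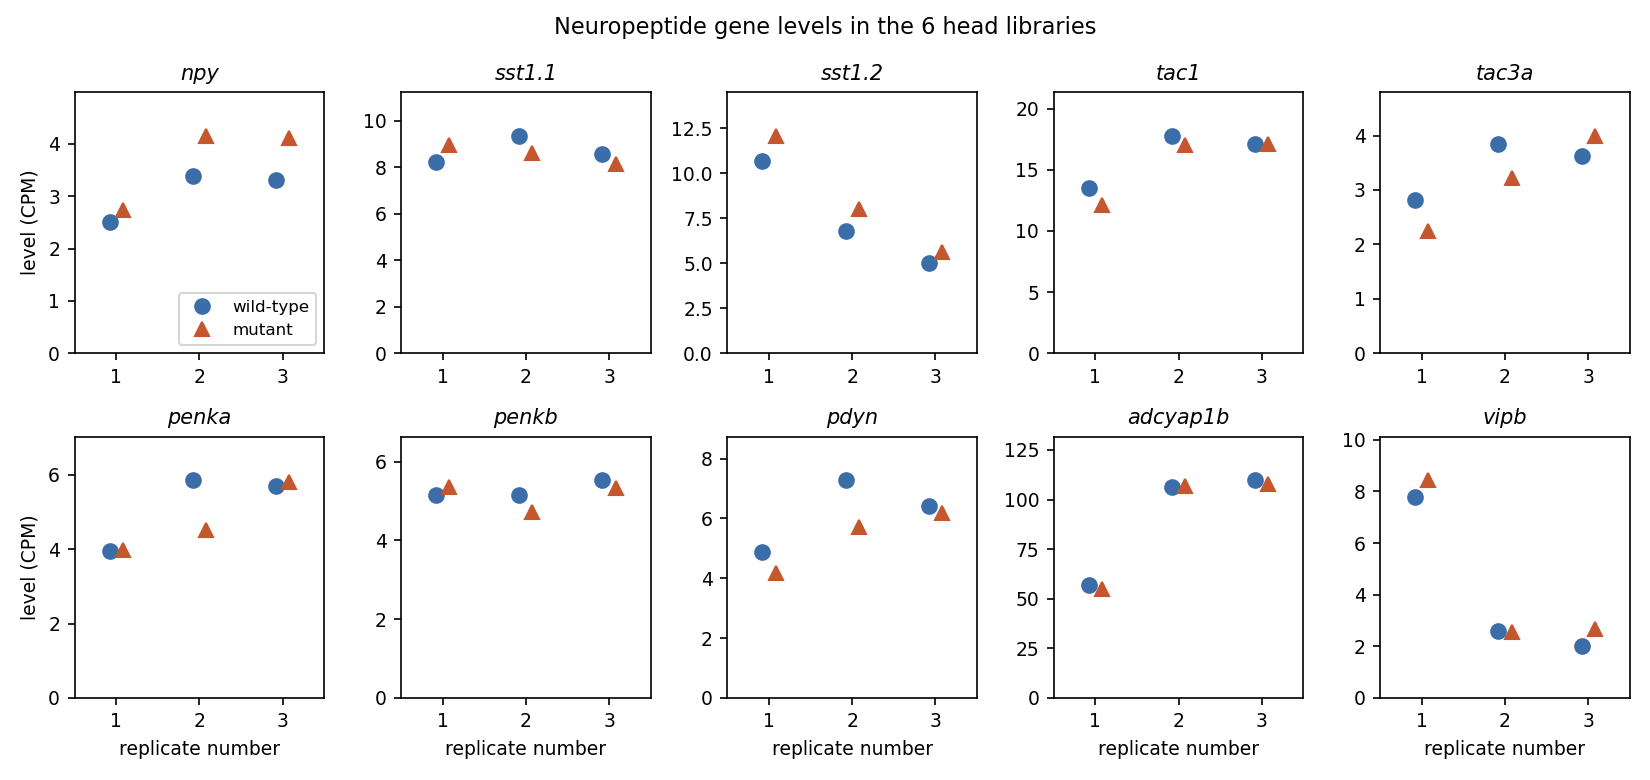
Level in CPM (vertical axis, from 0, a separate scale for each gene) of the 10 neuropeptide genes by replicate number (horizontal axis), with wild-type libraries as circles and mutant libraries as triangles, 1 point per library. Adcyap1b falls to 56.9 and 55.1 CPM in replicate 1, vipb and sst1.2 are highest there, and sst1.1 and penkb stay level.

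Tachykinins end in a shared amidated motif and act on neurokinin receptors. Tac1, the gene of substance P and neurokinin A, measured 13.5, 17.8 and 17.1 CPM in wild-type replicates 1, 2 and 3 and 12.1, 17.0 and 17.1 CPM in the mutant replicates. The replicate 1 libraries were the lowest in both genotypes, and the wild-type and mutant libraries of replicate 3 had like values. The within-pair log2 ratio was -0.16 in pair 1 (95% counting interval -0.31 to -0.00), -0.06 in pair 2 (-0.16 to 0.03) and 0.00 in pair 3 (-0.09 to 0.09). Only that of pair 1 lay outside counting error, and its interval ended just below 0. The log2 fold change was -0.06 (SE 0.19, edgeR adjusted p = 1), and with the block -0.07 (SE 0.058, edgeR adjusted p = 0.939). Tac3a, which encodes neurokinin B, a peptide tied to the control of reproductive hormones, measured 2.81, 3.85 and 3.63 CPM in wild-type replicates 1, 2 and 3 and 2.24, 3.22 and 4.0 CPM in the mutant replicates. The mutant library was lower in pairs 1 and 2 and higher in pair 3, by -20.4%, -16.4% and 10.2%. Only the difference of pair 2 lay outside its counting interval. Its mutant library of replicate 1 held the fewest counts of any member in any library, with a counting error of 9.95% of the value. The log2 fold change of tac3a was -0.12 (SE 0.26, edgeR adjusted p = 1), and its blocked interval ran from a fold of 0.74 to 1.13.

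Opioid peptides come from 3 of the members: penka and penkb encode precursors of enkephalins, and pdyn encodes the precursor of dynorphins, ligands of the kappa opioid receptor. Penka measured 3.94, 5.86 and 5.70 CPM in wild-type replicates 1, 2 and 3 and 3.97, 4.51 and 5.81 CPM in the mutant replicates. Pairs 1 and 3 had nearly equal values, and the mutant library of pair 2 was lower by 23.1% (log2 ratio -0.38, 95% counting interval -0.56 to -0.20). The difference of penka thus came from a single pair, and its log2 fold change of -0.12 (SE 0.23) had an edgeR adjusted p of 1. Penkb measured 5.16, 5.14 and 5.53 CPM in wild-type replicates 1, 2 and 3 and 5.36, 4.72 and 5.33 CPM in the mutant replicates. It was level over all 6 libraries, and no pair differed beyond counting error. The means of penkb were 5.28 ± 0.217 CPM in the wild-type heads and 5.14 ± 0.362 CPM in those of mutants (n = 3 per genotype, SD), with a log2 fold change of -0.04 (SE 0.14, edgeR adjusted p = 1). Pdyn measured 4.86, 7.28 and 6.42 CPM in wild-type replicates 1, 2 and 3 and 4.19, 5.70 and 6.19 CPM in the mutant replicates. It was the sole member with the mutant library lower in all 3 pairs, by -13.8%, -21.7% and -3.60%, and only the difference of pair 2 lay outside its counting interval (-0.51 to -0.19 on the log2 scale). The log2 fold change of pdyn was -0.21 (SE 0.23, edgeR adjusted p = 1). With the block it was -0.20 (SE 0.093), with an unadjusted p of 0.0649, 0.939 as the edgeR adjusted p, and a 95% interval from a fold of 0.74 to 1.01.

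PACAP and VIP are related peptides that raise cyclic AMP in their target cells, PACAP as a modulator of stress and sensory circuits and VIP as a peptide of brain interneurons, retina and gut nerves. Adcyap1b, a zebrafish PACAP gene, measured 56.9, 106.2 and 109.8 CPM in wild-type replicates 1, 2 and 3 and 55.1, 106.8 and 108.0 CPM in the mutant replicates. The levels of the genotypes were close in every pair (differences of -3.01%, 0.549% and -1.65%), and the replicate 1 libraries were low in both. With 2488 to 12101 counts per library it was the member measured with the least counting error, and each pair ratio lay within that error. Its log2 fold change was -0.02 (SE 0.36, edgeR adjusted p = 1), and with the block -0.02 (SE 0.038), with a 95% interval from a fold of 0.93 to 1.05. Vipb, 1 of 2 zebrafish VIP genes, measured 7.78, 2.58 and 2.00 CPM in wild-type replicates 1, 2 and 3 and 8.44, 2.54 and 2.68 CPM in the mutant replicates. It was high in both replicate 1 libraries and low in the other 4, and the mutant library was higher in pairs 1 and 3. The pair 3 difference of vipb was 34.3% (log2 ratio 0.43, 95% counting interval 0.17 to 0.68), while pairs 1 and 2 lay within counting error. The log2 fold change of vipb was 0.14 (SE 0.69, edgeR adjusted p = 1), and with the block 0.17 (SE 0.12, edgeR adjusted p = 0.939).

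**Figure D2:**
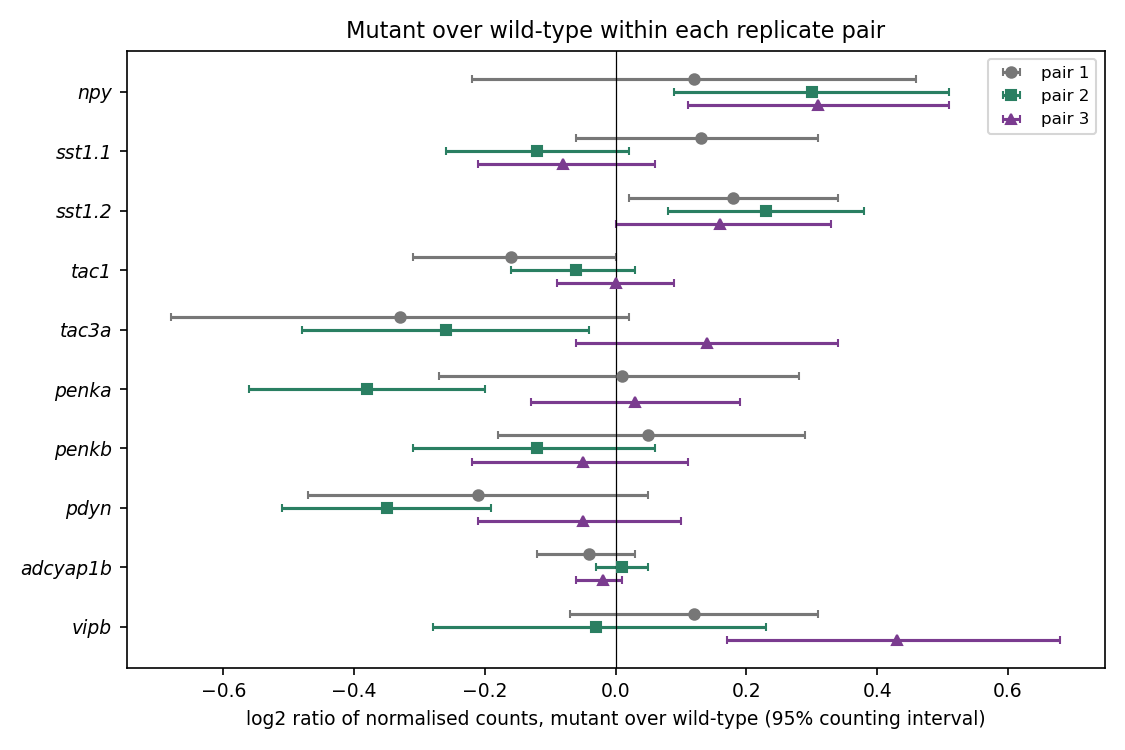
Log2 ratio of normalised counts, mutant over wild-type (horizontal axis), for the 10 genes in pairs 1 (circles), 2 (squares) and 3 (triangles), with bars for the 95% counting interval. All 3 points lie above 0 for npy and sst1.2 and below 0 for pdyn. Of the 30 intervals, 9 exclude 0. The bars of tac1 in pair 1, among the 9, and of sst1.2 in pair 3, not among them, end at about 0. The share of such intervals over all genes is not given here, and they leave out any spread between libraries beyond counting error.

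The counts of members were read against those of all tested genes. EdgeR called 0 of 10 members and 0% of the 24765 tested genes on genotype alone, where 0 members and 70 genes had an unadjusted p under 0.05. With the replicate block it again called 0 members and 0% of genes, and DESeq2 with the block called 0 members and 0.0686% of genes. At an unadjusted p under 0.05 in the blocked edgeR fit stood 2 members, npy and sst1.2, against 1138 genes, or 4.6% of all. DESeq2 with the block had 0 members there. The fit on genotype alone counts the replicate 1 difference as spread, so its 0 calls do not exclude differences between the genotypes. The member lower in all 3 pairs, pdyn, compares with 13.8% of all genes, and the 2 members higher in all 3 pairs, npy and sst1.2, compare with 13.1%. In no member did the 3 mutant libraries lie all below or all above the wild-type libraries, which 0.945% and 1.09% of all genes did. In both fits 7 members had a negative and 3 a positive log2 fold change, with a median of -0.032 on genotype alone and -0.037 with the block, beside medians of 0 and -0.001 over all genes. Pair medians of the members were 0.03, -0.09 and 0.01, so the pairs did not share a direction. Photoreceptor genes, read beside these values because heads hold eyes, had 11 of 12 lower in the blocked fit with a median of -0.18, 5 at an unadjusted p under 0.05 and 0 called. They summed to 2148.5, 3967.5 and 5107.2 CPM in wild-type replicates 1, 2 and 3 and to 2009.2, 3062.0 and 4665.5 CPM in the mutant replicates, and their part in the member values was not tested. Pan-neuronal markers had a blocked median of 0.00, with 7 lower and 7 higher.

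The block narrowed the intervals most for the genes that followed the replicate number. Over the members the SE of the log2 fold change ranged from 0.13 to 0.69 on genotype alone and from 0.038 to 0.13 with the block. For vipb the interval on genotype alone ran from a fold of 0.34 to 3.52, and with the block from 0.93 to 1.36. For penkb, which did not follow the replicate number, the intervals were 0.77 to 1.22 and 0.84 to 1.12. In the blocked edgeR fit, an increase of more than 1.42-fold lay outside the separate interval of each member. So did a decrease to less than 0.74 of the wild-type level. The blocked DESeq2 fit had a larger SE for every member, such as 0.18 for npy, 0.19 for tac3a and 0.15 for pdyn. These bounds are therefore those of the edgeR fit alone.

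**Figure D3:**
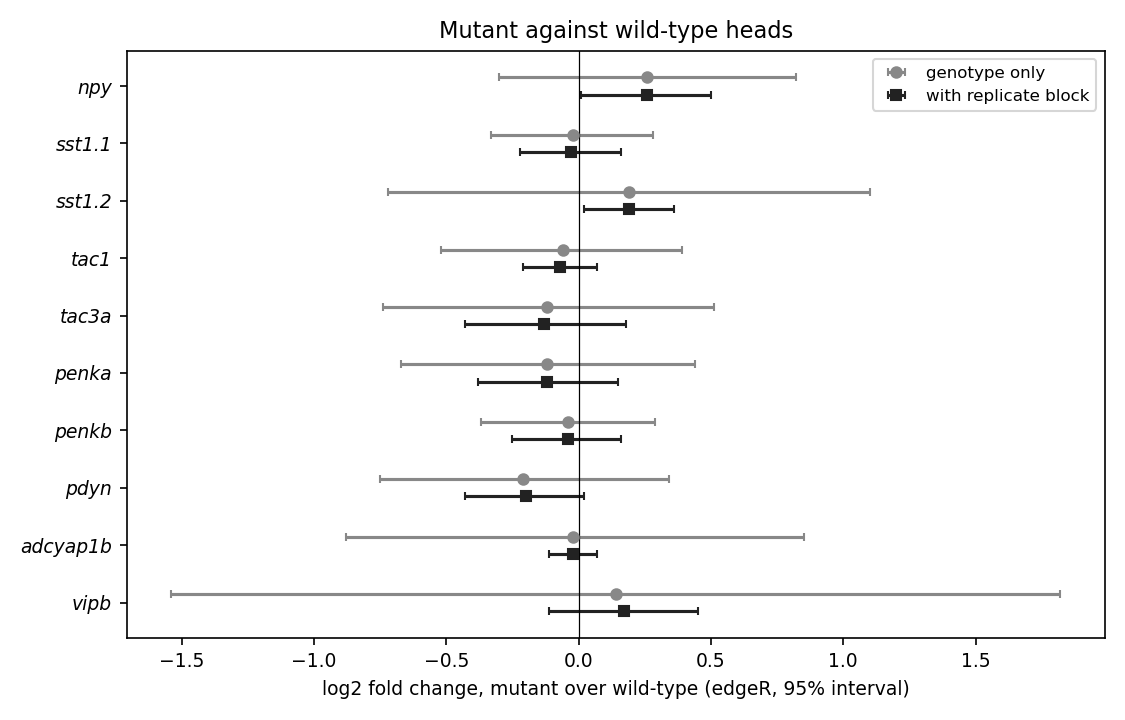
EdgeR log2 fold change, mutant over wild-type (horizontal axis), of the 10 genes with 95% intervals, from the fit on genotype alone (circles) and with the replicate block (squares), n = 3 libraries per genotype. Every interval on genotype alone spans 0, and the blocked intervals of npy and sst1.2 start just above 0.

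The members split into 3 groups by how the replicate 1 libraries differed from the others. Both replicate 1 libraries lay below the other 4 for npy, tac1, tac3a, penka, pdyn and adcyap1b, which is 6 of 10 members against 35.0% of all genes. Both lay above the other 4 for sst1.2 and vipb, 2 members against 33.7% of all genes, and they lay among the others for sst1.1 and penkb. These splits are descriptions, since the difference of replicate 1 was known beforehand. The log2 ratio of replicate 1 to the mean of replicates 2 and 3, on CPM plus 0.5, was -0.92 in wild-type and -0.96 in mutant heads for adcyap1b. For npy the ratio was -0.36 and -0.52, for tac1 -0.35 and -0.47, and for tac3a -0.36 and -0.58. Penka stood at -0.50 and -0.33 and pdyn at -0.45 and -0.46. Each of these 6 genes was thus low in replicate 1 in both genotypes, by 1.26-fold to 1.94-fold on this scale. Sst1.2 stood at 0.82 and 0.80, and vipb at 1.58 and 1.52, so that vipb alone passed a 2-fold difference in each genotype on this scale, as 4.2% of all genes did upward. None passed it downward, as 2.96% of all genes did. Sst1.1 (-0.12 and 0.09) and penkb (-0.04 and 0.09) changed sign between the genotypes. The member median was -0.35 in wild-type and -0.40 in mutant heads, beside -0.011 and -0.008 over all genes.

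Beside these values, the median of the pan-neuronal markers was -0.79 in wild-type and -0.78 in mutant heads, with 12 of 14 genes below the other 4 libraries in replicate 1. Of the members, adcyap1b alone fell as low as that median, and the other 5 low genes were nearer to 0. Skeletal muscle genes had medians of 2.18 and 2.10, with 10 of 10 above, and 15 of 15 tested hox genes of groups 9 to 13 were above (medians 2.57 and 2.06). Markers of pancreatic islet and gut hormone cells, which also make somatostatin and related peptides, were mixed. Their medians were 0.33 and 0.42, with 4 of 7 genes above and 2 below, neurod1 (-0.82 and -0.9) and pax6b. Ins, the insulin gene, stood at 0.77 and 0.79 and the motor neuron and beta cell factor mnx1 at 0.79 and 0.70. Pdx1 stood at 0.33 and 0.42, and insl5a and ghrl, both low in level, at 0.35 and 0.62 and at 0.14 and 0.14. Pax6b, which like neurod1 is also a brain and eye gene, stood at -1.59 and -1.42. The list as a whole summed to 247.7 and 239.2 CPM in the wild-type and mutant libraries of replicate 1 and to 445.1 to 492.6 CPM in the others, most of it from neurod1 and pax6b. The 6 genes listed as enteric neuron markers had medians of -0.43 and -0.52, with 4 genes below and 0 above. They summed to 149.1 and 146.4 CPM in replicate 1 and 186.9 to 202.6 CPM elsewhere. These genes are not confined to gut nerves, and which cells of the head their reads came from was not tested. The part that tissue makeup has in the levels of vipb and sst1.2 was not tested. With library totals alone as the scaling, the replicate 1 ratios of all genes shifted by -0.256 in wild-type and -0.257 in mutant heads. On that scaling 8 members lay below in replicate 1, sst1.1 and penkb being added, and sst1.2 and vipb stayed above. The shares of all genes below and above on that scaling are not given here, and those stated earlier were taken with TMM factors.

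**Figure D4:**
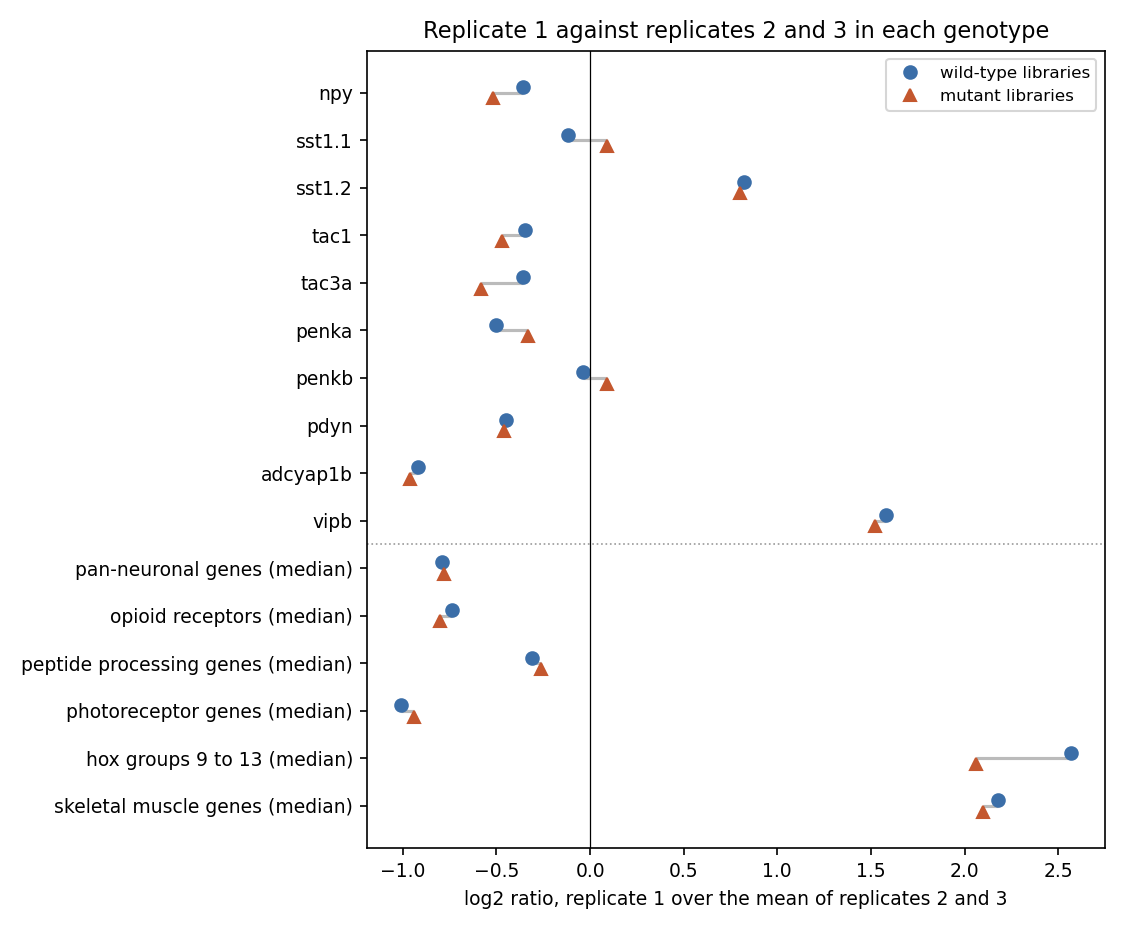
Log2 ratio of replicate 1 over the mean of replicates 2 and 3 (horizontal axis, CPM plus 0.5) in wild-type (circles) and mutant libraries (triangles), for each of the 10 genes and, below the dotted line, as the median of 6 other gene lists. Vipb and sst1.2 lie to the right, on the side of the muscle and posterior hox medians but at smaller ratios, and adcyap1b lies to the left near the pan-neuronal median. The lists of enteric neuron markers and of islet and gut hormone cell markers are not drawn.

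Over the 6 libraries the log2 levels of the 6 genes that were low in replicate 1 had positive correlations with each other, from 0.61 for npy and pdyn upward. Those of tac1 and adcyap1b correlated at 0.97, tac1 and pdyn at 0.95, and tac3a and pdyn at 0.94. Vipb correlated at 0.92 with sst1.2 and at -0.99 with adcyap1b. These values rest on 6 libraries that share the replicate 1 difference, and they describe it. The gene most like each member among 20617 others with a mean of at least 1 CPM was zdhhc9 for adcyap1b, apobec2a for vipb, gng5 for sst1.2 and pnpla4 for tac3a. For pdyn it was xpnpep2, for tac1 si:ch211-126c2.4, for npy BX322631.1, for penka AL844141.1, for penkb pcyt1ab and for sst1.1 ddx59. Pearson's r of these pairs ran from 0.9674 for sst1.1 to 0.9989 and above for tac3a, vipb and adcyap1b. How many genes were this alike differed widely between members. Of the compared genes, 18.3% had r over 0.95 with adcyap1b, 15.5% with vipb, 11.4% with tac1 and 5.09% with sst1.2. The share was 2.27% for penka, 1.39% for tac3a, 0.985% for pdyn and 0.771% for npy. It was 0.199% for penkb and 0.0146% for sst1.1, the members that did not follow replicate 1.

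Paralogs and related ligands showed no call between the genotypes in either fit, with 15 tested, 8 lower and 7 higher in the blocked fit and a blocked median of -0.05. Pomca, the precursor of melanocortins and beta-endorphin, was lower in the mutant library of every pair. It measured 10.3 CPM in the wild-type heads and 8.27 CPM in those of mutants, with a blocked log2 fold change of -0.31 (SE 0.066), an unadjusted p of 0.00238 and an edgeR adjusted p of 0.875. Pnoca, a nociceptin precursor gene, was also lower in every pair, at -0.30 (SE 0.099, edgeR adjusted p = 0.939), and so was tac3b, the second neurokinin B gene, at -0.34 (SE 0.16, edgeR adjusted p = 0.939). Of the 15 genes, 4 were lower in every pair, against 13.8% of all tested genes, and 3 were higher in every pair, against 13.1%. Over these 15 genes the median replicate 1 ratio was 0.15 in wild-type and 0.18 in mutant heads. The member medians were -0.35 and -0.40. Both replicate 1 libraries lay below the other 4 for 2 of the 15, against 35.0% of all tested genes. They lay above for 7, against 33.7%. The paralogs did not always share the replicate 1 pattern of the members. Vip stood at -0.55 and -0.54 in wild-type and mutant heads, where vipb stood at 1.58 and 1.52. Adcyap1a stood at -0.02 and -0.03, where adcyap1b stood at -0.92 and -0.96. Among somatostatin genes, cort stood at -0.31 and -0.23, and sst2, which in zebrafish is made in the pancreatic islet, at 1.06 and 0.79, on the side of sst1.2. Tac4 had too few counts to be tested.

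No receptor of these peptides passed the test in either fit, and none had an unadjusted p under 0.05 with the block. The 7 neuropeptide Y receptor genes had 5 lower and 2 higher (blocked median -0.16), with npy2r at -0.37 (SE 0.27), npy2rl at -0.21 (SE 0.16) and npy1r at -0.27 (SE 0.21). The 6 somatostatin receptor genes had 3 lower and 3 higher (median -0.01), with sstr2b at 0.31 (SE 0.32), sstr5 at -0.07 (SE 0.095) and sstr1b at -0.05 (SE 0.14). Of the 5 tachykinin receptor genes 1 was lower and 4 were higher (median 0.02), with tacr2 at 0.29 (SE 0.17), tacr3a at -0.46 (SE 0.31) and tacr1a at 0.10 (SE 0.14). The edgeR adjusted p of these examples was 0.939 or more. Tacr3a, npy2r and sstr2b, which had the largest of these values, were low in level. They averaged 0.411, 0.803 and 0.282 CPM in wild-type heads and 0.305, 0.627 and 0.354 CPM in those of mutants. The 5 opioid receptor genes were close to 0 throughout (median -0.01), with the nociceptin receptor gene oprl1 at -0.04 (SE 0.061), the mu receptor gene oprm1 at 0.07 (SE 0.13) and the delta receptor gene oprd1a at -0.05 (SE 0.14). All 5 were below the other libraries in replicate 1, with medians of -0.74 and -0.80 in wild-type and mutant heads, while of the opioid precursors penka and pdyn were below and penkb was not. Of 5 rows for PACAP and VIP receptors, 3 were lower and 2 higher (blocked median -0.04), with vipr1b at -0.19 (SE 0.16). Adcyap1r1a, the PACAP receptor gene, is split over 2 identifiers at 69.5 and 19.1 CPM in wild-type heads, with blocked log2 fold changes of -0.04 in both, and reads may be divided between them. It was low in replicate 1 on both rows, at -1.90 and -1.96 for the higher one, as its ligand gene adcyap1b was.

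Genes tied to the processing of the precursors, enzymes among them, did not pass the test either. Of 6 tested rows, 4 were lower and 2 higher, with a blocked median of -0.03. Cpe, the carboxypeptidase, measured 458.2 ± 165.2 CPM in the wild-type heads and 438.1 ± 154.7 CPM in those of mutants (n = 3 per genotype, SD), with a blocked log2 fold change of -0.06 (SE 0.034, edgeR adjusted p = 0.939). Pam, the amidating enzyme, stood at -0.06 (SE 0.040) and the convertase pcsk2 at -0.08 (SE 0.075). Cpe and pam were lower in the mutant library of every pair. In replicate 1 cpe stood at -1.04 and -1.0, pam at -0.35 and -0.30 and pcsk2 at 0.20 and 0.14 in wild-type and mutant heads.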

How the data were processed

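RNA came from heads, with 1 of 2 extraction kits, and libraries were made with a stranded mRNA kit, per the labels' protocols. The labels do not tie a kit to a library. The authors deposited raw counts per gene. Per the submitters' processing notes the tools were STAR 2.7.3, Subread, featureCounts 1.6.4 and DESeq2 with the build GRCz11; their settings, strand included, are not stated there. A normalized table was not used.

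Genes were filtered with filterByExpr and tested 2-sided with the quasi-likelihood test of edgeR 4.0.16 (R 4.3.3, TMM, genotype only), with Benjamini-Hochberg adjustment over 24765 genes and a threshold of 0.05. The scripts were tested on simulated data with changes larger than those of the members, and only the blocked fit had a condition to pass. Alternatives were a replicate block, RLE factors, library totals, no filter, DESeq2 1.42.0, limma 3.58.1 (voom) and leaving out each library or pair. The deviations from the genotype mean of a mutant and a wild-type library with the same number correlated at 0.941, 0.712 and 0.854 for replicates 1, 2 and 3, so the numbers were taken to pair the libraries. Between different numbers the correlation was 0.591 for wild-type replicate 2 with mutant replicate 3 and 0.543 for wild-type replicate 3 with mutant replicate 2. It was negative for the other 4 combinations, each with a replicate 1 library. Deviations are taken within a genotype, so the replicate 1 difference alone gives such negative values and a high value for pair 1. For wild-type replicate 2 the margin was small, 0.712 against 0.591. The blocked fit and the pair values rest on this pairing. The labels name no separate clutches, so p-values measure the spread between these libraries, which may be technical. Counting intervals cover counting error only. No molecular identifiers are named.

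The members and lists were chosen with earlier results of these data known. Genes named are the members, srrm4, up to 3 genes of each other list with the smallest blocked p, and for each member the tested gene with the highest Pearson's r of log2 CPM. Paralogs of members, ins, mnx1, pdx1 and insl5a were named after their values were seen. Sst5 and adcyap1r1b were not matched by name.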

Additional observations from a re-analysis of the deposited data

How the results depend on the processing

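No member was called in any fit, and the lowest edgeR, DESeq2 or limma adjusted p of a member over all fits was 0.774. Of 90 log2 fold changes of members in other fits, 88 kept their direction, among them all with the replicate block, which changed no call of a member, and all from replicates 2 and 3 alone in the blocked fit. The exceptions were sst1.1 and penka, each at 0.02 with the replicate block without the replicate 2 pair, an alternative added after the data were seen. Most of the other fits reused all 6 libraries, so they could hardly reverse a direction and do not test it on other samples. Over all genes, DESeq2 with the replicate block called 17, and edgeR with the replicate block without the replicate 2 pair called 2, against 0. With library totals alone 2 members, not 1, were lower in all 3 pairs, and the share of all genes on that scaling is not given here. Without 1 library at a time, on genotype alone, 14 of 60 values changed sign, in 7 members. The ranges were -0.07 to 0.03 for sst1.1, -0.14 to 0.53 for sst1.2, -0.17 to 0.08 for tac1, -0.33 to 0.07 for tac3a, -0.07 to 0.02 for penkb, -0.26 to 0.24 for adcyap1b and -0.65 to 0.98 for vipb. Npy (0.14 to 0.43), pdyn (-0.35 to -0.06) and penka (-0.29 to 0.00) did not change sign. Leaving out a replicate 1 library unbalances the genotypes over the replicate numbers. Depth limits npy and tac3a most, with the fewest counts of the members in the mutant library of replicate 1.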

Other observations

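Transcription factors and cofactors that act in peptide neurons showed 0 calls among 10 tested genes, with 5 lower and 5 higher in the blocked fit. Gsx1, a homeobox factor of the ventral forebrain and hindbrain, was higher in the mutant library of every pair, with a blocked log2 fold change of 0.19 (SE 0.077), an unadjusted p of 0.0414 and an edgeR adjusted p of 0.939. Otpa, a factor of hypothalamic neuroendocrine neurons, stood at 63.2 ± 0.863 CPM in the wild-type heads and 74.7 ± 15.7 CPM in those of mutants (n = 3 per genotype, SD), with a blocked log2 fold change of 0.22 (SE 0.11, edgeR adjusted p = 0.939). The difference of otpa came mainly from mutant replicate 2, at 92.4 CPM, with 69.4 and 62.4 CPM in mutant replicates 1 and 3. Its log2 ratios were 0.15, 0.52 and -0.01 in pairs 1, 2 and 3. Isl1, a factor of motor, sensory and hypothalamic neurons, stood at -0.08 (SE 0.044, edgeR adjusted p = 0.939). In replicate 1, 7 of these 10 genes lay below the other 4 libraries and 1 above. Exocrine pancreas genes, markers of a tissue outside the brain, had 1 lower and 7 higher of 8 in the blocked fit, with 0 called and a median of 0.15. Their median log2 ratio was 0.53 in pair 1, -0.34 in pair 2 and 0.16 in pair 3, so the pairs did not share a direction. They summed to 77.5 to 116.4 CPM in wild-type and 81.6 to 129.4 CPM in mutant libraries.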
